A study of Mus musculus with 24 samples.

Results

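The contractile unit of the heart muscle cell is described here through 30 named mouse genes of the sarcomere and its Z-disc. They were taken from a list by symbol and read on the brightest usable microarray probe of each gene. All 30 had such a probe, and they are 30 of 15875 genes measured. Of these, 9 belong to the thick filament and the M-band, 6 to the thin filament and 15 to the Z-disc. The list was drawn up with earlier results of these arrays known, so its counts in each comparison are set beside the same counts over all genes.

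A sarcomere is the repeating unit of a muscle fibril: myosin thick filaments, held together at the central M-band, pull on actin thin filaments that are anchored in the Z-discs at either end, and titin spans from Z-disc to M-band. Troponin and tropomyosin on the thin filament let calcium switch the pull on and off. Z-disc proteins also carry load to the membrane and the intermediate filaments, sense stretch, and take part in building and repairing fibrils. When a coronary artery is blocked, muscle cells downstream die and sarcomere proteins leak from them, which is why cardiac troponins serve as blood markers of infarction.

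The hearts came from male C57BL6/J mice whose left anterior descending coronary artery was closed for 45 min and then reopened. IGF1, insulin-like growth factor 1, was given as a subcutaneous bolus of 40 ng/g when reperfusion began, followed by 1 µg/g per day from an osmotic pump for the first 3 days. Control mice received the vehicle, phosphate-buffered saline with bovine serum albumin. RNA was taken from the area at risk in the anterior wall after 24, 48 or 168 h, which gives 6 groups of 4 samples, each on 1 one-colour Agilent array. The design text calls the controls sham-operated, whereas each vehicle sample is labelled with 45 min of occlusion; the sample labels were followed, and no uninjured heart is among the groups used. No age is given, nor is it stated that each sample is a separate animal, so the p-values rest on a spread between samples that may be technical.

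Levels are log2 intensities minus the 75th percentile of each array, so 0 is the 75th percentile and a difference of 1 is a doubling. They are compared within a gene only, since probes differ in how strongly they bind. The 75th percentile lay between 370 and 620 intensity units, 52.8% to 62.9% of the spots were well above background, and arrays of a group correlated at 0.983 to 0.993. Of the 30 genes, 29 were well above background on every array. The exception was Myl7, the regulatory light chain of atrial myosin, which was well above background on 9 of 24 arrays. Of these, 3 were vehicle and 4 were IGF1 arrays at 168 h. It thus met the filter, well above background on at least 4 arrays, only through that time. Its calls for 168 h are not independent of that filter. Defining genes of heart muscle were present on every array: Myh6, the main myosin heavy chain of the adult mouse heart, averaged 8.35 to 8.72 and Myl2, the ventricular regulatory light chain, 8.19 to 8.73 in the 6 groups. The natriuretic peptide gene Nppa, an atrial marker, averaged 8.59 to 8.94, and these levels do not tell ventricle from atrium. For its low signal Myl7 is left out of list means and medians, or enters a median at its bound.

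Promoter sequence is shown for 7 of the genes, because these carry most of the results that follow: Myoz2, Ttn, Myl3 and Myom1 were higher with IGF1 at 24 h, Mybpc3 climbed with time, and Csrp3 and Flnc declined with time. Each run is the 250 bases before the annotated transcription start, 5′ to 3′ on the gene's own strand, from RefSeq on GRCm38.p6. Capitals mark matches to binding motifs of muscle or heart factors on either strand, namely the CArG box of serum response factor, the MEF2 site, the M-CAT element (CATTCC) and the GATA sites TGATAA and AGATAA.

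Myoz2, chr3:123034988-123035237, minus strand: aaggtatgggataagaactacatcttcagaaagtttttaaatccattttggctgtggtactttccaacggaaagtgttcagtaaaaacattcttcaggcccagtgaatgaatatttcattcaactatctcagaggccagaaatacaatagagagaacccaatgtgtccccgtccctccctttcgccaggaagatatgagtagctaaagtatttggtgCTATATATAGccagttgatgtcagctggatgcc
Ttn, chr2:76982548-76982797, minus strand: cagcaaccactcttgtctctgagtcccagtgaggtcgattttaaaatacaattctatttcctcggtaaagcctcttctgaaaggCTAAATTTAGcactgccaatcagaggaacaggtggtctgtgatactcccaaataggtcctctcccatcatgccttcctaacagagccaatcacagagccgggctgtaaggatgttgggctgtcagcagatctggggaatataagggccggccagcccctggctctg
Myl3, chr9:110763428-110763677, plus strand: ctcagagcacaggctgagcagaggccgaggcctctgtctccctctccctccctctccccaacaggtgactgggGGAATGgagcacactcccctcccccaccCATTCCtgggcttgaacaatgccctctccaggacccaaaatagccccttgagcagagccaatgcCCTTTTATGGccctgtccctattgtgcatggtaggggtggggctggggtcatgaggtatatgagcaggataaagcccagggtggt
Myom1, chr17:71019307-71019556, plus strand: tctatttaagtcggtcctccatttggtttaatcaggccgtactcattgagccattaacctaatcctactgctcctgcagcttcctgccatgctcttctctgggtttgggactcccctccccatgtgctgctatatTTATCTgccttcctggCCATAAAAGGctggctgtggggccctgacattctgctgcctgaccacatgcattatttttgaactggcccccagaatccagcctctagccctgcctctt
Mybpc3, chr2:91117894-91118143, plus strand: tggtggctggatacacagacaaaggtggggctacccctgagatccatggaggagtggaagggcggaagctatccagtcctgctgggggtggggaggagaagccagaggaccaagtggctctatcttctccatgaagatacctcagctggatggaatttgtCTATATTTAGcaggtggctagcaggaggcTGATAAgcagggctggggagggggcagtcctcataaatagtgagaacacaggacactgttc
Csrp3, chr7:48848052-48848301, minus strand: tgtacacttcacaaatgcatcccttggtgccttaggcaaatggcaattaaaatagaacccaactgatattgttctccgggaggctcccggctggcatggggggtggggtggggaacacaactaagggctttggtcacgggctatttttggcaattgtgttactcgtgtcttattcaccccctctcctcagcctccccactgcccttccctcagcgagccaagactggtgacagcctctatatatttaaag
Flnc, chr6:29432903-29433152, plus strand: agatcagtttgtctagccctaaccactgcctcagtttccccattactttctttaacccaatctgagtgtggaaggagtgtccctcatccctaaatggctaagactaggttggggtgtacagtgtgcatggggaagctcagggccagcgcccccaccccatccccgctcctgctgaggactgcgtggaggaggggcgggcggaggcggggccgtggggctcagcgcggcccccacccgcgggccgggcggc

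In the Myoz2 run the capitals are a MEF2 site at positions -33 to -24 from the start, and in Ttn a MEF2 site at -166 to -157. Myl3 holds a CArG box at -85 to -76 and M-CAT elements at -177 to -172 and -149 to -144. Myom1 holds a CArG box at -99 to -90 and AGATAA on the opposite strand at -115 to -110. Mybpc3 holds a MEF2 site at -90 to -81 and TGATAA at -61 to -56. None of these letters was found within the printed runs of Csrp3 and Flnc, which says nothing of whether the factors bind there. For Flnc an M-CAT element spans the start, at -1 to 5, and is cut by the end of the run. Counted from a second annotated start of Flnc, an M-CAT element lies at -104 to -99. Over windows from 250 bases before to 50 after the start, 25 of the 30 genes had an entry. The CArG box was present in 6 of the 25 (Myl3, Myl7, Myom1, Actc1, Ldb3 and Nebl) and in 1.81% of all 27025 genes with a window. The MEF2 site was present in 4 of the 25 (Mybpc3, Ttn, Myoz2 and Synpo2l) and in 3.70% of all genes. The M-CAT element was present in 9 of the 25 (Myh6, Myl3, Myl7, Ttn, Tnnt2, Tnnc1, Tpm1, Nebl and Flnc) and in 16.6% of all genes. TGATAA was present in 2 of the 25 and 10.4% of all genes, and AGATAA in 5 of the 25 and 12.7%. The matches describe letters, not binding.

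The first comparison asks what IGF1 did to these genes at 24 h of reperfusion. In the IGF1 infarcts 7 of the 30 genes were higher than in the vehicle infarcts and 1 was lower, at a Benjamini-Hochberg adjusted p under 0.05 in limma over all genes. Of all genes tested 16.0% passed, 8.77% higher and 7.22% lower. The higher genes were Myl3, Ttn, Myom1 and Myom2 of the thick filament and M-band, Tnni3 of the thin filament, and Myoz2 and Myot of the Z-disc; the lower gene was Csrp3. The median difference over the 29 genes other than Myl7 was 0.22 on the log2 scale, against 0.01 over all genes. In bulk tissue a lower level can stem from fewer cells of a type or from less RNA per cell, and these cannot be told apart.

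Within the thick filament and M-band the 8 differences other than that of Myl7 were all above 0, with a median of 0.34, and 4 passed the test. The share of all genes above 0 was not counted. Myl3, the essential light chain of ventricular myosin, read 9.07, 8.93, 8.79 and 8.70 on the IGF1 arrays (replicates 1 to 4) and 8.58, 8.39, 8.40 and 8.52 on the vehicle arrays. Every IGF1 array lay above every vehicle array, and the difference was 0.40 ± 0.11 (SE), 1.32-fold (adjusted p = 0.0159). Myom1, a myomesin that cross-links thick filaments in the M-band, read 5.64, 5.31, 5.27 and 5.08 with IGF1 against 4.91, 4.77, 4.74 and 5.03 with vehicle. Here too the arrays did not overlap, at a difference of 0.46 ± 0.10, 1.38-fold (adjusted p = 0.00561). Its relative Myom2 read 7.48, 7.09, 7.17 and 7.01 against 6.83, 6.89, 6.52 and 7.02. The lowest IGF1 array fell just below the highest vehicle array, and the difference was 0.37 ± 0.10 (adjusted p = 0.0195). Ttn, which encodes the giant spring protein titin, read 6.68, 6.24, 6.36 and 6.60 against 5.59, 6.13, 6.0 and 6.37. The groups overlapped through vehicle replicate 4, and the difference was 0.45 ± 0.14 (adjusted p = 0.0388).

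The other 5 genes of this group did not pass. Myl4, the essential light chain of atrial myosin, read 0.56, 0.67, 0.28 and 0.46 with IGF1 and 0.25, 0.20, 0.13 and 0.19 with vehicle. All 4 IGF1 arrays were higher, but its difference of 0.30 ± 0.10 missed the threshold (adjusted p = 0.0531). Mybpc3, the cardiac myosin-binding protein C that regulates cross-bridges, differed by 0.30 ± 0.12 (adjusted p = 0.105). The abundant ventricular genes Myh6 and Myl2 each differed by 0.17, with adjusted p-values of 0.447 and 0.404. For Myh6 the mean over its usable probes gave 0.58 and passed (adjusted p = 0.0353). Myl7 was well above background on 1 IGF1 array and on no vehicle array, so no fold is given.

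In the thin filament 1 of 6 genes passed, and the median difference was 0.25. Tnni3, cardiac troponin I, read 8.31, 8.00, 8.03 and 7.93 with IGF1 against 7.66, 7.45, 7.51 and 7.70 with vehicle. All IGF1 arrays stood above all vehicle arrays, by 0.49 ± 0.13 on average, 1.40-fold (adjusted p = 0.0169). Tnnc1, the calcium-binding troponin C, read 6.18, 6.19, 6.05 and 6.06 against 5.82, 5.66, 5.77 and 6.01. These arrays did not overlap either, but the difference of 0.31 ± 0.13 did not pass (adjusted p = 0.117). Cardiac troponin T (Tnnt2) differed by 0.19 ± 0.13 (adjusted p = 0.321) and cardiac actin (Actc1) by -0.13 ± 0.11 (adjusted p = 0.451). Tpm1 averaged 8.25 ± 0.10 (SD, n = 4) with IGF1 and 8.07 ± 0.14 with vehicle, and Lmod2, which lengthens thin filaments at their pointed ends, 0.79 ± 0.20 and 0.47 ± 0.42.

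The Z-disc was mixed: 2 of its 15 genes were higher, 1 was lower, and the median difference was -0.01. Myoz2, or calsarcin-1, a Z-disc protein that binds calcineurin, read 6.81, 6.21, 6.26 and 6.17 with IGF1 and 5.74, 5.55, 5.46 and 5.75 with vehicle. All IGF1 arrays were higher, by 0.74 ± 0.14 on average, 1.67-fold (adjusted p = 0.0025). Myot, or myotilin, which bundles actin at the Z-disc, read 1.46, 1.57, 1.69 and 1.99 against 0.76, -0.20, 1.13 and 0.82. The arrays did not overlap, although the vehicle arrays were widely spread, and the difference was 1.05 ± 0.33, 2.07-fold (adjusted p = 0.0365). Csrp3, or muscle LIM protein, a stretch-responsive Z-disc protein, went the other way at 7.48, 7.53, 7.66 and 7.84 against 7.99, 8.14, 7.84 and 7.90. The groups met at 7.84, and the difference was -0.34 ± 0.11 (adjusted p = 0.0471).

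Among the Z-disc genes that did not pass, Tcap, the titin cap, had the smallest p: it read 8.13, 7.59, 6.99 and 6.78 with IGF1 and 6.92, 6.41, 6.19 and 7.27 with vehicle. Those arrays overlapped, and the difference was 0.68 ± 0.26 (adjusted p = 0.0766). Flnc, or filamin C, which links actin to the Z-disc and membrane, differed by -0.40 ± 0.20 (adjusted p = 0.192), with IGF1 replicate 1 at 6.40 far below the others at 7.05 to 7.69. Xirp1, an actin-binding protein of the intercalated disc and of damaged fibrils, differed by -0.01 ± 0.21, Nrap, which takes part in assembling new fibrils, by -0.11 ± 0.12, and the intermediate filament protein desmin (Des) by -0.16 ± 0.19. Their adjusted p-values were 0.989, 0.597 and 0.599. Over all 30 genes, 8 had every IGF1 array above every vehicle array, 26.7% of them, against 10.1% of all genes, and none had every array below, against 8.26%.

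Calls at this time differed in how far they rested on single arrays. Myoz2 passed under every alternative processing and without any single array. With the 24 h arrays fitted alone, Myoz2 and Tnni3 were the 2 of the 30 genes called, and Myl3 (adjusted p = 0.0573), Myom1 (0.0739), Myom2 (0.145), Myot (0.057), Csrp3 (0.102) and Ttn (0.158) did not pass. Ttn and Csrp3 failed in 6 alternative settings each. Without IGF1 replicate 1, adjusted p-values were 0.07 for Myl3, 0.0891 for Myom2, 0.0738 for Tnni3, 0.138 for Ttn, 0.153 for Csrp3 and 0.0674 for Myot, and 2 of the 30 genes were called. Without vehicle replicate 2 they were 0.0542 for Myl3, 0.0587 for Tnni3, 0.0611 for Ttn, 0.15 for Csrp3 and 0.144 for Myot, with 3 genes called. Without vehicle replicate 1 Ttn had 0.143, Csrp3 0.0907 and Myot 0.057, and 5 genes were called. Without vehicle replicate 3 Ttn had 0.0775 and Myom2 0.0731. Csrp3 also failed without vehicle replicate 4 (0.0576) and IGF1 replicates 2 (0.105) and 3 (0.066), Ttn without IGF1 replicate 4 (0.0848), and Myot without IGF1 replicates 2 to 4 (0.0549, 0.0606 and 0.0811). Each slide held 1 array of each treatment at 24 h, so the difference can be read within slides. Its range was 0.43 to 1.07 for Myoz2, 0.56 to 1.77 for Myot, 0.18 to 0.54 for Myl3, 0.23 to 0.65 for Tnni3 and 0.05 to 0.73 for Myom1. The arrays of these genes did not overlap, so the sign on each slide was fixed in advance and adds no support. Among the genes whose arrays overlapped, the difference was above 0 on 4 of 4 slides for Ttn (0.10 to 1.09). It was above 0 on 3 of 4 slides for Myom2 (-0.01 to 0.65) and on none for Csrp3 (-0.61 to -0.06).

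**Figure D1:**
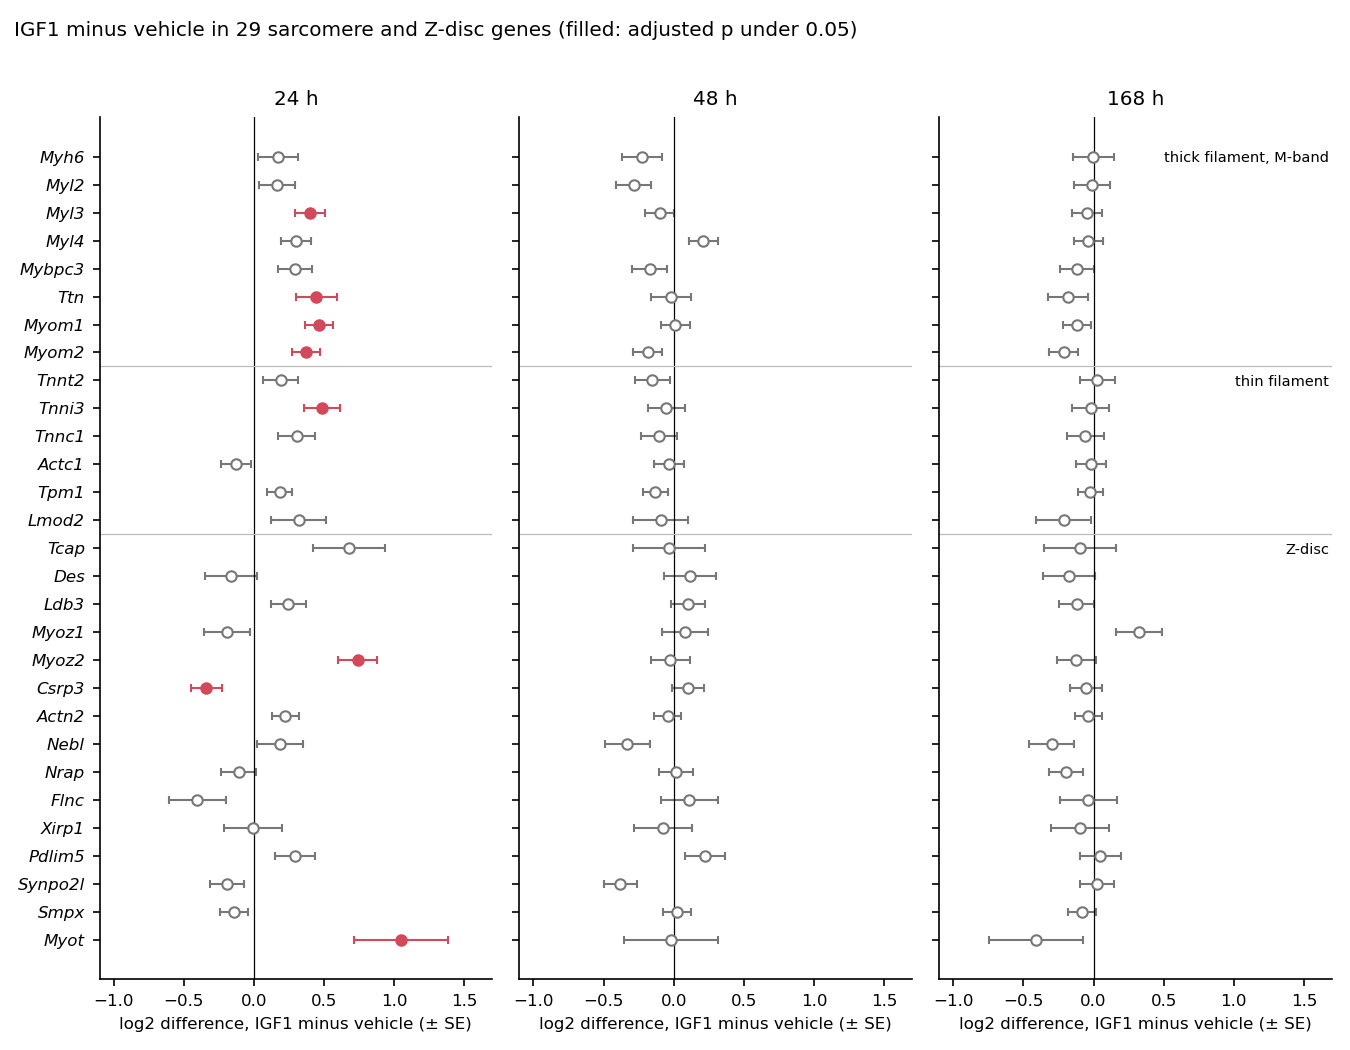
Differences between IGF1 and vehicle infarcts on the log2 scale for 29 of the 30 genes (all but the dim Myl7) at 24, 48 and 168 h, from the limma fit to 24 arrays; the bars are ± 1 SE, and filled points passed an adjusted p of 0.05. Of the 30 genes, 8 passed at 24 h (7 higher, 1 lower) and none at 48 or 168 h.

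Other genes of muscle and of other cells moved beside these. Of 31 other sarcomere genes 6 were higher with IGF1 at 24 h and 4 lower (median 0.12), led by Cmya5 at 1.12 and Tnnt3 at -0.97. Of 23 genes of sarcomere assembly and turnover 6 were higher and 1 lower (median 0.24), with the ubiquitin ligases Fbxo32 at 1.13 and Trim63 at 0.55 among the higher and Klhl40, a chaperone adaptor for thin-filament proteins, at -0.66. Of 16 cardiomyocyte genes outside the sarcomere 10 were higher and none lower (median 0.48), among them the calcium pump Atp2a2 at 0.78, its inhibitor phospholamban (Pln) at 0.80 and the calcium channel Cacna1c at 0.92. Of 12 leukocyte markers none was higher and 7 were lower (median -0.55), among them Ptprc (CD45) at -0.86, the lysozyme gene Lyz2 at -0.93 and the macrophage marker Adgre1 at -0.74. All 12 were well above background, and their mean level ran from 3.72 to 3.90 on the vehicle arrays and from 3.27 to 3.46 on the IGF1 arrays; none of the defining markers was absent. Within slides the leukocyte mean differed by -0.54 to -0.34 and the mean of the 8 thick-filament genes by 0.04 to 0.52. Neither mean overlapped between the treatments, so its sign on each slide was fixed in advance. On slide 4, 4 of the 8 thick-filament genes (Myh6, Myl2, Mybpc3 and Myom2) were below 0. The thin-filament mean was higher on 3 of 4 slides and stood at -0.04 on slide 4. The part of cell composition in the sarcomere differences was not tested. Of 10 markers each, fibroblasts had 1 gene higher (median -0.14), endothelium 1 higher (0.13), smooth muscle 1 higher and 1 lower (-0.12), and skeletal muscle 1 higher and 1 lower (0.21).

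At 48 h none of the 30 genes differed between IGF1 and vehicle by this test, against 0.0126% of all genes, and 2 of the 30 had an unadjusted p under 0.05. The share of all genes at that unadjusted threshold was not counted, here or in the later comparisons. The smallest p-value belonged to Synpo2l, an actin-bundling Z-disc protein, which read 3.91, 3.92, 3.91 and 3.97 with IGF1 and 4.07, 4.20, 4.74 and 4.21 with vehicle. All IGF1 arrays were lower, but the difference of -0.38 ± 0.12 did not pass (adjusted p = 0.368). It passed with slide as a fixed block, at -0.46 (adjusted p = 0.0401). Myl2 (-0.29 ± 0.13, adjusted p = 0.532) and Nebl, a thin-filament anchor of the Z-disc (-0.33 ± 0.16, adjusted p = 0.566), also had every IGF1 array below every vehicle array, as did 3.39% of all genes; none of the 30 had every IGF1 array above, against 2.51% of all genes. The genes that had passed at 24 h now differed by -0.02 (Myoz2; 95% interval -0.31 to 0.27), -0.02 (Ttn; -0.32 to 0.28), -0.02 (Myot; -0.71 to 0.67) and 0.10 (Csrp3; -0.13 to 0.34). Among the remaining reference genes, Myh6 differed by -0.23, Myl4 by 0.21, Tnnt2 by -0.15, Actc1 by -0.03, Xirp1 by -0.08, Flnc by 0.11, Nrap by 0.02 and Des by 0.12.

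At 168 h, 4 days after the pump infusion had ended, no gene of the 30 and 0% of all genes passed, and none of the 30 had an unadjusted p under 0.05. Myom2 came closest: it read 7.36, 7.37, 7.38 and 7.31 with IGF1 and 7.51, 7.54, 7.70 and 7.53 with vehicle. All IGF1 arrays were lower by a small margin, as they were for 1.55% of all genes (the reverse held for 1.10%), at a difference of -0.21 ± 0.10 (limma, unadjusted p = 0.052, adjusted p = 1). Myoz1 differed by 0.32 ± 0.16, Nebl by -0.30 ± 0.16 and Nrap by -0.20 ± 0.12. The sign was below 0 for 25 of the 29 genes other than Myl7, with a median of -0.06, against -0.007 over all genes. The share of all genes below 0 was not counted, and the 29 genes were read on the same arrays. The count is therefore not read as a joint fall. Myh6, Myl2, Myl4, Tnnt2, Actc1, Csrp3 and Flnc lay between -0.05 and 0.03, Xirp1 at -0.10, Myoz2 at -0.12, Des at -0.17 and Ttn at -0.18.

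Whether the response to IGF1 differed between the times was tested directly. The F-test over the 3 times called 3 of the 30 genes, 10%, against 5.66% of all genes: Myoz2 (adjusted p = 0.0218), Myom2 (0.0287) and Myom1 (0.0380). Setting 168 h against 24 h, the IGF1 difference changed by -0.86 ± 0.20 for Myoz2 (adjusted p = 0.0111), -0.58 ± 0.14 for Myom1 (0.0161), -0.59 ± 0.15 for Myom2 (0.0169) and -1.46 ± 0.47 for Myot (0.05, just inside the threshold). These are 4 of the 30 genes, against 11.1% of all genes. Setting 48 h against 24 h, none of the 30 genes and 0.101% of all genes passed. At an unadjusted p under 0.05 there were 13 of the 30, and the lowest adjusted p was 0.084. The count of 13 has no background over all genes and is not read as a trait of the 30. Setting 168 h against 48 h, none of the 30 and 0% of all genes passed, with 1 of the 30 at an unadjusted p under 0.05. Leaving out single arrays gave between 0 and 5 F-test calls. Myoz2 was lost without vehicle 24 h replicate 2 (adjusted p = 0.0552), and Myom2 without vehicle 24 h replicates 1, 2 or 3 or IGF1 24 h replicate 1 (0.0505 to 0.0698). Myom1 was lost without any of 12 arrays: vehicle 24 h replicates 1, 2 and 3, IGF1 24 h replicates 1 and 2, IGF1 48 h replicates 1 and 2, vehicle 168 h replicates 2 and 3, and IGF1 168 h replicates 1, 3 and 4 (0.052 to 0.094). Myom1 and Myom2 were also lost with quantile scaling, with median scaling and with dim probes kept.

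The time course in the vehicle infarcts asks how these genes change as the infarct ages without treatment. The calls fell differently by place in the sarcomere. Genes of the thick filament and M-band were higher at 168 h than at 24 h or did not pass. The thin filament changed in 1 gene, and the Z-disc held all the declines. Whether the 3 groups of genes differ from each other was not tested. From 24 to 168 h, 10 of the 30 genes rose and 9 fell, 63.3%, against 60.2% of all genes (28.1% higher and 32.1% lower), so the share that changed was near the background. By group, 6 of 9 thick-filament and M-band genes rose, Myl7 among them, and none fell (median 0.52 with Myl7 at its bound). In the thin filament 1 of 6 genes rose and none fell (median -0.05), and in the Z-disc 3 of 15 rose and 9 fell (median -0.62). The median over all genes was -0.03.

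In the thick filament, Mybpc3 climbed at each step. It read 7.77, 7.60, 7.39 and 7.98 at 24 h, 8.29, 8.30, 8.35 and 8.59 at 48 h, and 8.91, 8.83, 8.98 and 8.82 at 168 h. No array of one time overlapped with an array of another, and the total rise was 1.20 ± 0.12, 2.29-fold (adjusted p = 4.79e-08). Myl4 stayed low at first, at 0.25, 0.20, 0.13 and 0.19 at 24 h and 0.40, 0.18, 0.53 and 0.28 at 48 h, and read 1.55, 1.25, 1.46 and 1.33 at 168 h. The first 2 times overlapped, whereas all 168 h arrays were higher, by 1.21 ± 0.10 over 24 h, 2.31-fold (adjusted p = 5.18e-09). Myom2 read 6.83, 6.89, 6.52 and 7.02, then 7.04, 7.23, 7.04 and 7.33, then 7.51, 7.54, 7.70 and 7.53. Its 3 times did not overlap, with a total rise of 0.75 ± 0.10 (adjusted p = 2.45e-06).

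Myom1 rose by 0.42 from 24 to 168 h (adjusted p = 0.0012) and Ttn by 0.52 (adjusted p = 0.00366). The Ttn arrays read 5.80, 5.97, 5.91 and 6.39 at 48 h and 6.37, 6.60, 6.46 and 6.75 at 168 h, an overlap of 1 array with a mean step of 0.53 (adjusted p = 0.00405). Myl7 was well above background on no vehicle array at 24 or 48 h and on 3 of 4 at 168 h, where it was at least 1.63-fold and at least 1.52-fold higher (adjusted p = 0.0113 and 0.00863). It entered the test only through its 168 h arrays, so these calls are not independent of the filter. The call against 24 h was lost without vehicle 168 h replicate 1 (0.0552) and with normexp background correction (0.0988). With that correction the log2 differences were 0.40 and 0.53, below the bounds of 0.70 and 0.60, so the bounds hold for the scanner's own correction only. The bounds set the mean of the 168 h arrays against the lowest signal that was well above background on each dim array. Myh6 averaged 8.55 ± 0.25 at 24 h, 8.57 ± 0.25 at 48 h and 8.49 ± 0.22 at 168 h, and Myl2 8.56 ± 0.22, 8.48 ± 0.25 and 8.43 ± 0.21. Neither passed at any step. The direction for Myh6 depended on the probe: the mean over its usable probes was 0.45 higher at 168 h than at 24 h (adjusted p = 0.037), where the brightest probe gave -0.06.

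The thin filament had the fewest calls of the 3 groups. Tnni3 averaged 7.58 ± 0.12, 7.44 ± 0.19 and 7.43 ± 0.31 at 24, 48 and 168 h, Tnnt2 8.20 ± 0.24, 8.20 ± 0.21 and 8.10 ± 0.15, and Actc1 8.47 ± 0.22, 8.42 ± 0.14 and 8.46 ± 0.17. Tpm1 read 8.14, 7.96, 7.94 and 8.23 at 24 h, 7.87, 7.96, 8.16 and 8.19 at 48 h, and 7.80, 8.01, 8.03 and 8.11 at 168 h. Its arrays overlapped at all 3 times. Other Tpm1 probes differed over that time by -0.90 and 0.84, against -0.08 on the brightest. Lmod2 was the thin-filament gene that rose, from 0.44, 0.09, 0.30 and 1.06 at 24 h to 1.24, 1.25, 1.04 and 1.18 at 168 h. The arrays met at vehicle 24 h replicate 4, and the rise was 0.71 ± 0.20 (adjusted p = 0.00381).

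The largest change among the 30 genes lay in the Z-disc. Flnc read 7.48, 7.56, 7.81 and 7.27 at 24 h, 5.71, 6.10, 6.22 and 6.01 at 48 h, and 4.92, 5.03, 5.14 and 4.72 at 168 h. The 3 times did not overlap, and the total fall was 2.58 on the log2 scale (SE 0.20), 5.98-fold (adjusted p = 1.63e-09). Csrp3 read 7.99, 8.14, 7.84 and 7.90, then 6.80, 7.14, 6.80 and 7.12, then 6.24, 6.56, 6.61 and 6.34. Again no arrays overlapped, with a total fall of 1.53, 2.88-fold (adjusted p = 6.48e-10). Xirp1 read 3.43, 3.96, 4.02 and 4.18, then 2.76, 3.53, 3.17 and 3.38, then 1.58, 2.46, 2.23 and 2.12. Only its 24 and 48 h arrays overlapped, and it fell by 1.80 in all, 3.48-fold (adjusted p = 2.67e-07). Within the slides that held both times, the falls ran from -2.56 to -2.45 for Flnc, -1.55 to -1.52 for Csrp3 and -2.06 to -1.34 for Xirp1.

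Not all Z-disc genes fell at the same time. Nrap fell early, from 6.82, 6.98, 7.05 and 7.05 at 24 h to 5.90, 5.95, 5.78 and 6.39 at 48 h, and stood at 5.86, 6.04, 6.10 and 6.0 at 168 h. Its first step was -0.97 ± 0.12 (adjusted p = 2.79e-05) and its second -0.01. Myoz1, or calsarcin-2, which is best known from fast skeletal muscle, was the reverse: -1.66, -1.80, -1.48 and -1.65 at 24 h, -1.83, -2.03, -2.15 and -2.03 at 48 h, and -3.40, -3.40, -3.04 and -3.41 at 168 h. Its first step of -0.36 did not pass (adjusted p = 0.119), and its second was -1.30 ± 0.16, 2.47-fold (adjusted p = 1.42e-06). Whether the steps of Nrap and Myoz1 differ from each other was not tested. Des averaged 6.16 ± 0.17, 5.63 ± 0.27 and 5.52 ± 0.33, and fell by 0.64 in all (adjusted p = 0.00557, or 0.0774 with quantile scaling).

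Of the other Z-disc genes, the stretch-linked small protein Smpx fell by 0.68 from 24 to 168 h, and Pdlim5 and Synpo2l each by 0.62. Against this, Myoz2 read 5.74, 5.55, 5.46 and 5.75 at 24 h, 5.71, 5.57, 5.28 and 5.87 at 48 h, and 5.89, 6.39, 6.29 and 6.27 at 168 h. The first 2 times overlapped and all 168 h arrays were above them, by 0.59 ± 0.14 over 24 h (adjusted p = 0.00106). Tcap rose by 0.88 ± 0.26 (adjusted p = 0.00572, or 0.0685 with slide as a fixed block) and Nebl by 0.85 ± 0.16 (adjusted p = 0.000127). Actn2, the alpha-actinin that forms the core of the Z-disc lattice, averaged 7.96 ± 0.16, 7.81 ± 0.19 and 7.87 ± 0.14, and did not pass. Ldb3 differed by 0.21 (adjusted p = 0.153) and Myot by 0.40 (adjusted p = 0.318), so 3 of the 15 passed in neither direction.

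**Figure D2:**
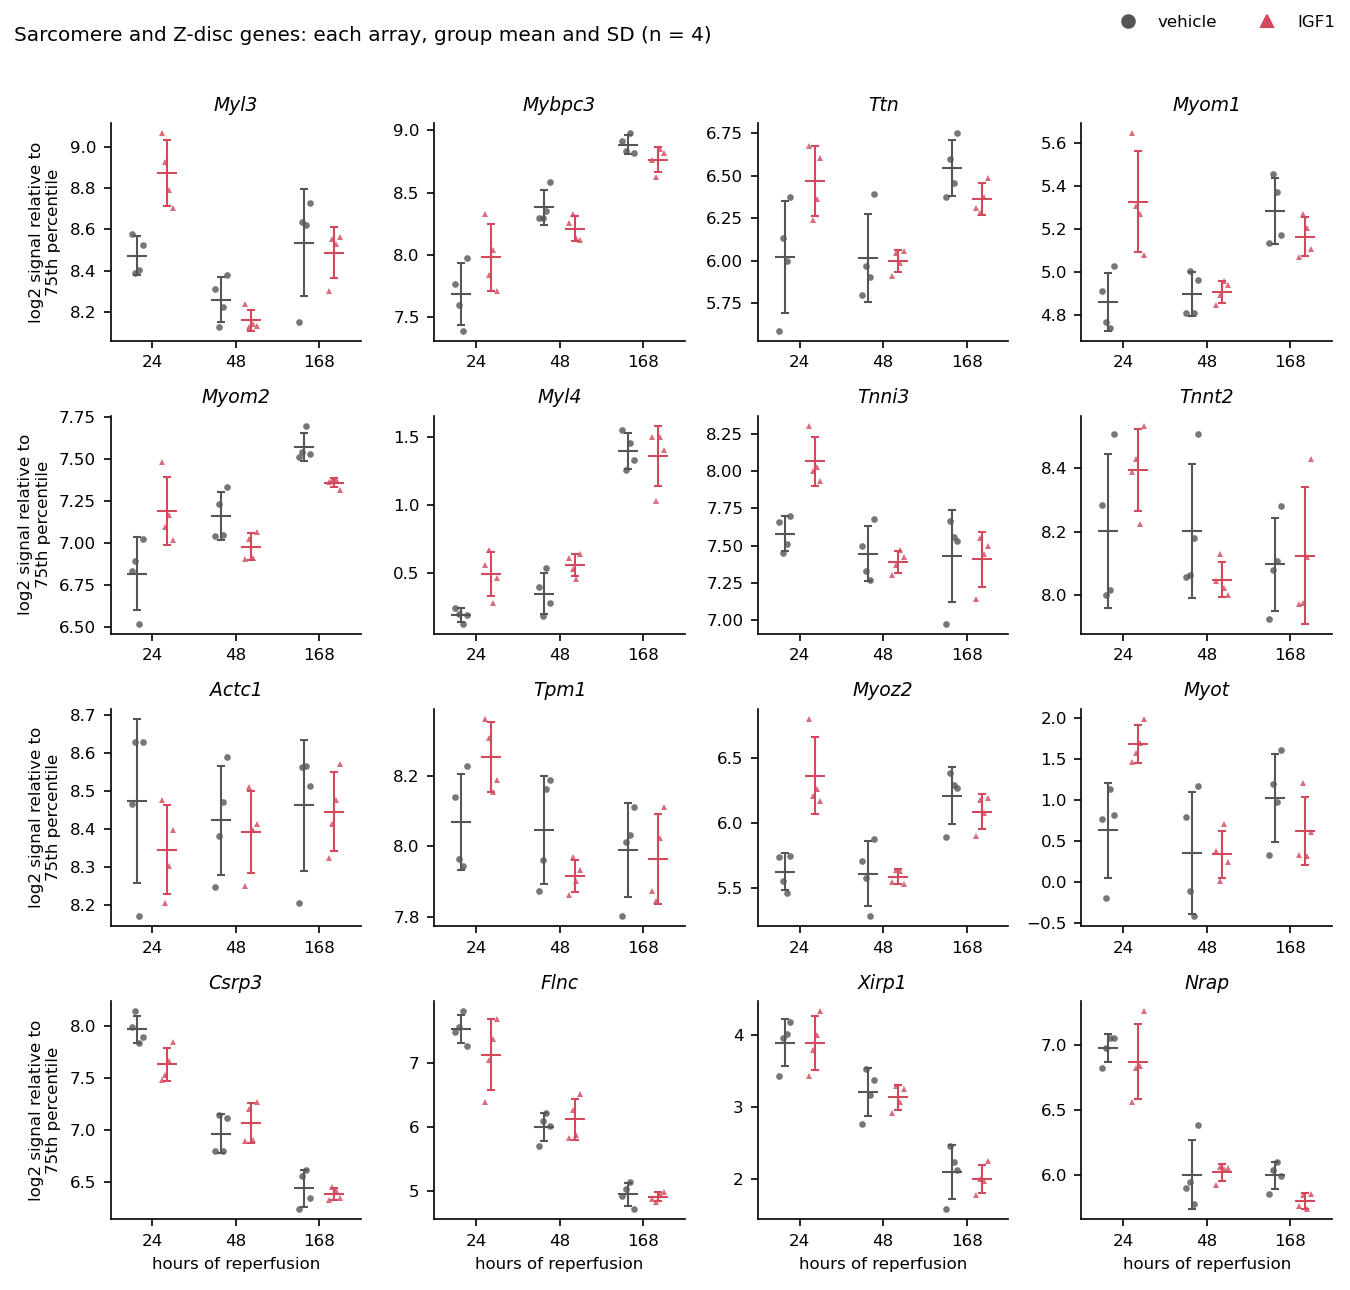
Log2 level above the array's 75th percentile (y axis, scaled for each gene) for 16 of the 30 genes on each of the 24 arrays, by hours of reperfusion and treatment; points are arrays, and bars give the group mean and SD (n = 4). Vehicle levels of Flnc run from 7.27 to 7.81 at 24 h down to 4.72 to 5.14 at 168 h, while Mybpc3 runs from 7.39 to 7.98 up to 8.82 to 8.98.

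By step, 3 of the 30 genes rose and 5 fell in the vehicle infarcts from 24 to 48 h, against 22.7% of all genes (11.2% higher and 11.4% lower). The higher ones were Nebl (0.75), Mybpc3 (0.70) and Myom2 (0.34), and the lower ones Flnc (-1.52), Csrp3 (-1.0), Nrap (-0.97), Xirp1 (-0.69) and Des (-0.52). Des did not pass without vehicle 24 h replicates 2, 3 or 4 or 48 h replicates 1 or 3 (adjusted p 0.0897 to 0.145), Xirp1 without 24 h replicates 3 or 4 or 48 h replicate 1 (0.0644 to 0.0873), and Myom2 without 24 h replicate 3 or 48 h replicates 2 or 4 (0.0515 to 0.0981). The number of calls was 5 without vehicle 24 h replicate 3. Scaling arrays to their median gave 2 higher and 6 lower. Myl3 (-0.21), Ldb3 (-0.31), Myoz1 (-0.36) and Smpx (-0.18) had the smallest p-values among those that did not pass. Synpo2l differed by 0.05 on its brightest probe and by -0.56 as the mean of its probes (adjusted p = 0.0271).

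From 48 to 168 h, 9 rose and 7 fell, against 53.1% of all genes (25.0% higher and 28.1% lower). The higher ones were 7 of the 9 thick-filament genes (Myl4, Ttn, Mybpc3, Myom2, Myom1 and Myl3 at 0.27 to 1.05, and Myl7, for which there is only a bound), Myoz2 (0.60) and Ldb3 (0.51), and the lower ones were Z-disc genes, led by Myoz1 (-1.30), Xirp1 (-1.12), Flnc (-1.06), Synpo2l (-0.68) and Csrp3 (-0.53). Slides bear on this step, since the 168 h and 48 h vehicle arrays share slide 4 alone. With slide as a fixed block 9 genes were called, 3 of them higher, and the adjusted p-values were 0.0566 for Myoz2, 0.0601 for Myl7, 0.102 for Mybpc3, 0.107 for Myom2, 0.147 for Myom1 and 0.231 for Myl3. On slide 4 itself the differences were 1.05 for Myl4, 0.40 for Myoz2, 0.36 for Ttn, 0.23 for Mybpc3, -1.38 for Myoz1, -1.29 for Flnc, -1.26 for Xirp1 and -0.77 for Csrp3. Quantile scaling gave 12 higher and 5 lower. The Ldb3 call rested on 1 probe, since another gave 0.01. Myl3 did not pass without vehicle 48 h replicates 2 or 3 or 168 h replicates 2, 3 or 4 (adjusted p 0.07 to 0.123), nor Pdlim5 without 168 h replicate 1 (0.0579). With quantile scaling Csrp3 (0.07) and Pdlim5 (0.226) did not pass.

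Other cells changed greatly over the same days. In the vehicle infarcts from 24 to 168 h, 9 of 10 fibroblast markers rose and none fell (median 2.35), with periostin (Postn) up by 3.62 and Col1a1 by 2.89, and their mean level went from 3.74 to 5.96. Of 12 leukocyte markers 2 rose and 7 fell (median -0.49), with the neutrophil genes S100a8 and S100a9 at -7.13 and -6.81. Of 16 cardiomyocyte genes outside the sarcomere 6 rose and 1 fell (median 0.22), among them Cacna1c (1.38), Pln (0.93) and Casq2 (0.77). Of 7 atrial markers 4 were measurable on enough arrays. Of these, Myl4 and Myl7 are among the 30 genes, Dkk3 rose by 6.28 and Nppa differed by 0.20 (adjusted p = 0.131); Sln, Bmp10 and Mybphl were not measurable. The part of atrial tissue in the rises of Myl4 and Myl7 was not tested. Hemoglobin genes were high on 1 array, vehicle 168 h replicate 3 (1.91 against -2.34 to -1.02 on the others of the group). Calls over 24 to 168 h changed little without it: without any single array 18 or 19 of the 30 genes were called.

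**Figure D3:**
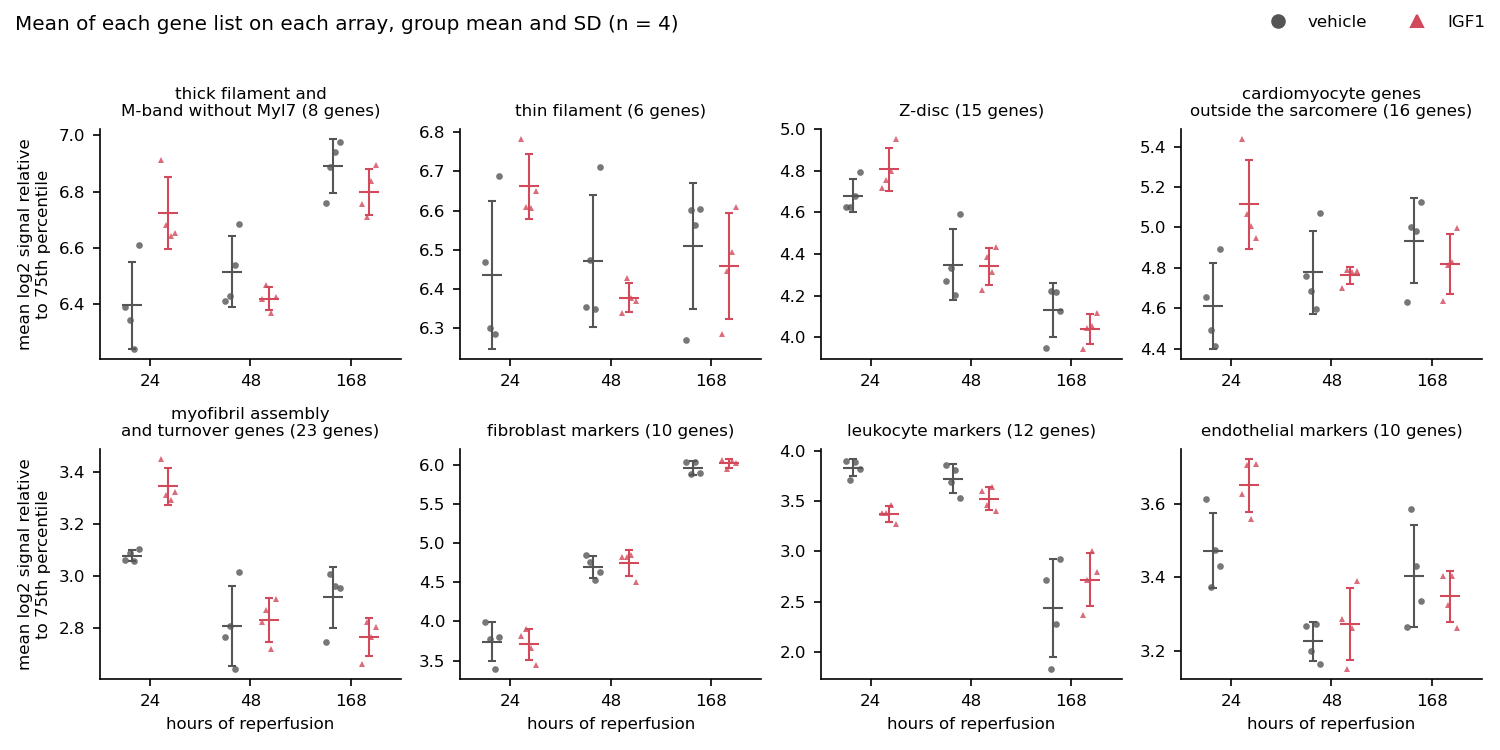
Mean log2 level of gene lists (3 groups of the sarcomere, 2 of other cardiomyocyte genes and 3 of markers of other cells) on each array, by hours of reperfusion and treatment; points are arrays, and bars give the group mean and SD (n = 4). The fibroblast mean goes from 3.74 to 5.96 in the vehicle groups between 24 and 168 h, and the Z-disc mean from 4.68 to 4.13, while the mean of the thick filament without Myl7 goes from 6.40 to 6.89.

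Other muscle genes show the company of the 30 in the vehicle course from 24 to 168 h. Of 31 other sarcomere genes 15 rose and 9 fell, with Ankrd2, a stretch-responsive partner of titin, at -6.50, Fhl1 at -2.16, the slow or fetal myosin heavy chain Myh7 at 1.90 and the M-band gene Myom3 at 1.86. Of 23 assembly and turnover genes 5 rose and 7 fell, with the kelch adaptors Klhl40 at -2.62 and Klhl41 at -2.43, the ubiquitin ligase Fbxo32 at 1.55 and the protease Capn3 at 1.17.

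The time course in the IGF1 infarcts started from a different point. From 24 to 48 h none of the 30 genes rose and 16 fell, against 37.6% of all genes (16.2% higher and 21.3% lower), and the median of the 29 genes other than Myl7 was -0.35 against -0.08 over all genes. The falls were spread over the whole sarcomere, in 5 thick-filament, 3 thin-filament and 8 Z-disc genes. Myot read 1.46, 1.57, 1.69 and 1.99 at 24 h and 0.37, 0.01, 0.71 and 0.24 at 48 h, a fall of 1.34 (adjusted p = 0.00357) with no overlap. Myoz2 went from 6.81, 6.21, 6.26 and 6.17 to 5.54, 5.64, 5.63 and 5.53, a fall of 0.78 (adjusted p = 0.000239), also without overlap. Tnni3 went from 8.31, 8.00, 8.03 and 7.93 to 7.30, 7.37, 7.47 and 7.42, a fall of 0.68 (adjusted p = 0.000484). All its 48 h arrays were below all its 24 h arrays. Myl3 fell by 0.71, Flnc by 1.01, Nrap by 0.85, Xirp1 by 0.76 and Csrp3 by 0.56. The remaining calls were Myl2, Ttn, Ldb3, Actn2, Myom1, Myh6, Tnnt2 and Tpm1, at -0.54 to -0.34. The Tpm1 call was lost with the mean of its probes (adjusted p = 0.806).

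Both treatments can be set side by side at this step, since they share no sample. Called as lower in both were 4 genes (Flnc, Csrp3, Nrap and Xirp1), which are 80% of the vehicle's 5 and 25.0% of the 16 with IGF1. The overlap over all genes was not counted, here or for the later steps. These shares therefore have no background and are not read as a trait of the 30 genes. The difference between the treatments' steps passed for none of the 30. Without single arrays Myh6 (adjusted p 0.0707 to 0.126) and Tnnt2 (0.0581 to 0.0987) did not pass in 6 of the 8 settings each, namely without IGF1 24 h replicates 1, 2 or 4 or 48 h replicates 1, 3 or 4. Quantile scaling gave 2 higher and 12 lower, where Tpm1 (adjusted p = 0.19), Tnnt2 (0.35), Actn2 (0.0709) and Myh6 did not pass. Myh6 also failed with normexp background correction, with dim probes kept and with slide as a fixed block. Its highest adjusted p over all alternatives was 0.482. Tnnt2 failed with dim probes kept as well. In the same step 8 of 16 cardiomyocyte genes outside the sarcomere fell and 1 rose (median -0.44), 16 of 23 assembly and turnover genes fell and none rose, and 5 of 12 leukocyte markers rose and 2 fell.

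From 48 to 168 h with IGF1, 8 of the 30 genes rose and 6 fell, against 48.7% of all genes (22.6% higher and 26.2% lower). The higher ones were 7 thick-filament genes, among them Myl4 (0.80), Mybpc3 (0.55) and Ttn (0.36), and Myoz2 (0.50); the lower ones were Flnc (-1.21), Xirp1 (-1.14), Myoz1 (-1.06), Csrp3 (-0.68), Pdlim5 (-0.63) and Smpx (-0.60). Myl7 was called too, but it was well above background on 1 of 4 arrays at 48 h and 4 of 4 at 168 h, so no size is given. Here too it was tested only because of its 168 h arrays. All 8 of the higher genes were also called higher in the vehicle course, as 88.9% of its 9. All 6 of the lower ones were called lower there, as 85.7% of its 7. With 53.1% and 48.7% of all genes called in these steps, overlap is common, and its share over all genes was not counted. These IGF1 arrays share no slide between the times. With slide as a fixed block 7 genes were called, 1 of them higher, and the adjusted p-values of Myl3, Myl7, Mybpc3, Ttn, Myom1, Myom2 and Myoz2 lay between 0.122 and 0.726. Ttn failed without each of the 8 arrays other than IGF1 168 h replicate 2 (adjusted p 0.0561 to 0.102), and Myom1 without each other than IGF1 168 h replicate 1 (0.0518 to 0.111). Scaling to the median gave 5 higher and 8 lower.

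From 24 to 168 h with IGF1, 2 rose and 15 fell, against 58.5% of all genes (24.6% higher and 34.0% lower). Mybpc3 read 8.33, 7.84, 8.04 and 7.71 at 24 h and 8.76, 8.63, 8.85 and 8.82 at 168 h, a rise of 0.78 ± 0.12 (adjusted p = 1.32e-05) without overlap. Myl4 rose by 0.87 ± 0.10 (adjusted p = 5.1e-07). The falls comprised 11 of the 15 Z-disc genes, led by Flnc (-2.21), Xirp1 (-1.89), Csrp3 (-1.24), Myoz1 (-1.15), Nrap (-1.06) and Myot (-1.06), together with Tnni3 (-0.66), Myl3 (-0.38), Myl2 (-0.32) and Tpm1 (-0.29). All 9 genes that fell in the vehicle course were among the 15, as 60% of them, and the 2 that rose were 20% of the vehicle's 10. The overlap over all genes was not counted here either. Myoz2 differed by -0.28 ± 0.14 here (adjusted p = 0.0953), where the vehicle course had risen by 0.59. That difference between treatments is the -0.86 tested for Myoz2 in the previous comparison of 168 h with 24 h. Myl2 did not pass without IGF1 24 h replicates 1 or 4 or 168 h replicates 1, 2 or 3 (adjusted p 0.0643 to 0.104). Quantile scaling gave 4 higher and 9 lower, with Tpm1 at 0.000055 in place of -0.29, and the mean of its probes gave 0.03. In this course 9 of 10 fibroblast markers rose (median 2.66), 6 of 16 cardiomyocyte genes outside the sarcomere fell and none rose, and 17 of 23 assembly and turnover genes fell and 2 rose.

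**Figure D4:**
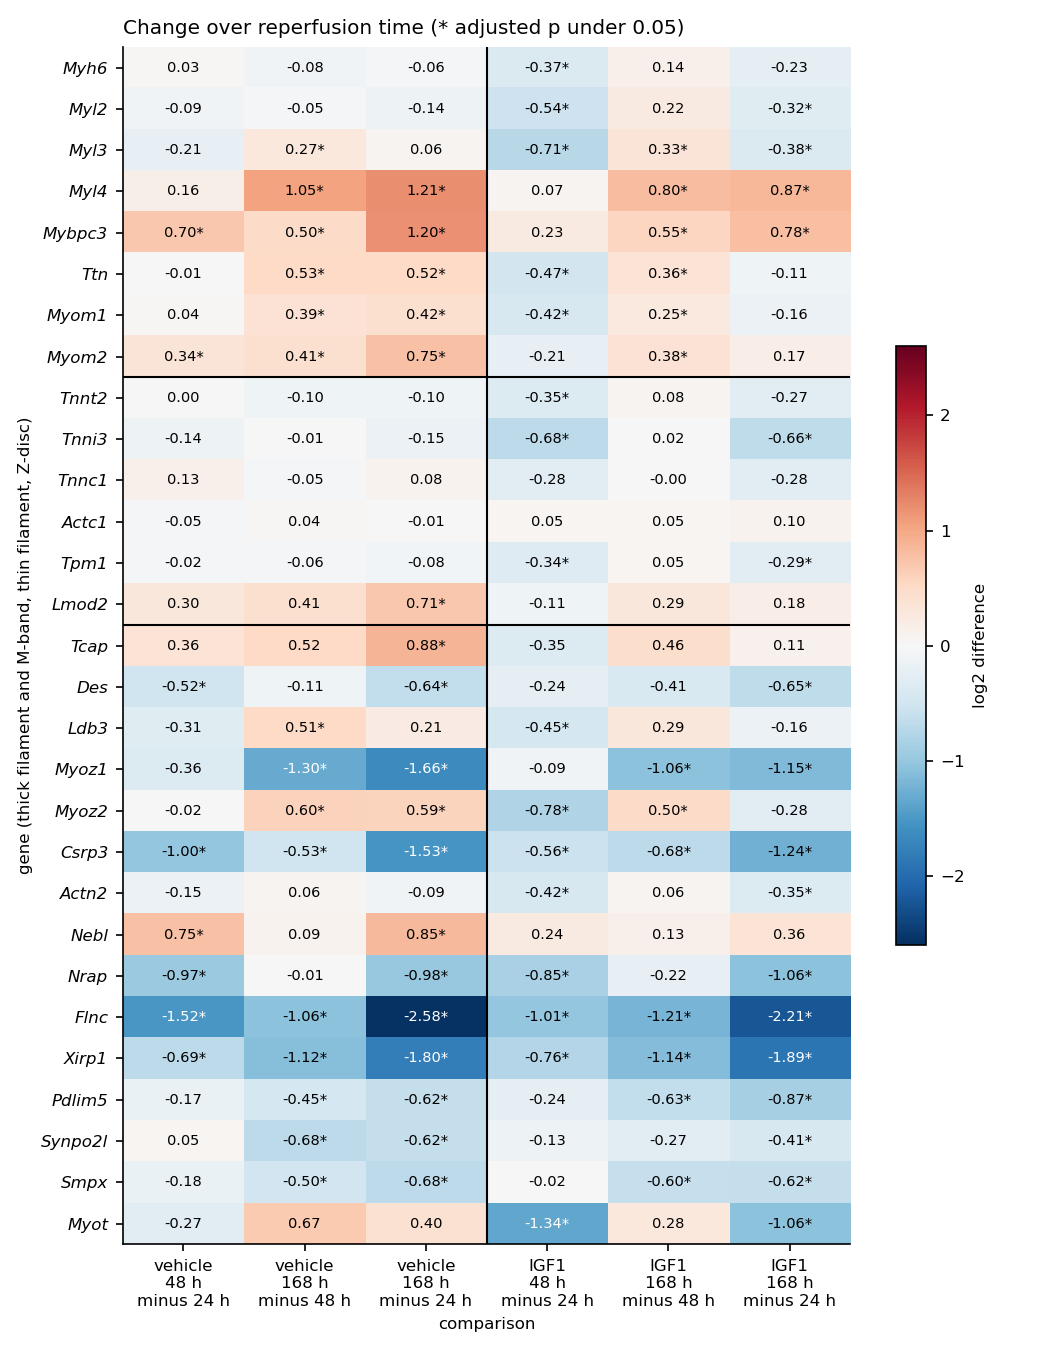
Heat map of log2 differences between times for 29 of the 30 genes (rows, all but the dim Myl7, ordered by sarcomere group) in the vehicle and the IGF1 infarcts (columns: 48 against 24 h, 168 against 48 h and 168 against 24 h); marked cells passed an adjusted p of 0.05. Flnc, Csrp3 and Xirp1 fall in every column, and Myl4 and Mybpc3 are higher at 168 h than at 24 h under both treatments.

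Across all 6 groups the F-test called 26 of the 30 genes, against 76.5% of all genes: 8 of 9 in the thick filament and M-band, 3 of 6 in the thin filament and 15 of 15 in the Z-disc. The 4 that did not pass were Actc1, Myh6, Tnnc1 and Tnnt2, among them the main cardiac actin, the main adult myosin heavy chain and cardiac troponin T. Vehicle 24 h replicate 4 stood above its group in the thick-filament mean (6.61 against 6.24 to 6.39), and vehicle 168 h replicate 1 stood below its group in the thin-filament mean (6.27 against 6.56 to 6.60).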

How the data were processed

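One-colour Agilent arrays of 24 infarct samples were used. Per the file headers the arrays were read with Feature Extraction 12.0.3.2, and the deposited intensity is its processed signal, background-subtracted by the scanner software. The authors also deposited a table of log2 values. It matched the log2 intensity minus each array's 75th percentile after each probe was centred (residual SD 8.71e-07 over 33585 probes), and it served as an alternative. Differences on the same probe are thus the same by construction, and this alternative varied only the genes tested (15663). Further processing by the submitters is not given in the sources used here. Here the intensities were turned to log2, each array's 75th percentile was subtracted, control spots and 53 to 130 outlier spots per array were left out, and replicate spots were averaged. A probe was kept if well above background on at least 4 of 24 arrays. Probes were named by accession through RefSeq, without versions (33767 of 56605 probes, 59.7%), and the brightest kept probe stood for each gene. No spot was saturated. Precision is bounded by having 4 arrays in a group.

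All 15875 genes were fitted in limma 3.58.1 (R 4.3.3) with 1 mean per group, 18 residual degrees of freedom, eBayes, two-sided tests and Benjamini-Hochberg adjustment at 0.05. On simulated data for IGF1 against vehicle at 24 h (15851 genes, 200 changed), 46% of changes of 0.5, 78% of 1 and 98% of 1.5 (log2) were recovered, with 7 false among 167 calls. The simulated noise was independent between genes and arrays, and in the data 16.0% of all genes were called at 24 h. These rates therefore check the code and need not hold for the data. The 30 genes and all gene lists were chosen with earlier results of these data known. In each comparison the text names up to 8 called genes with the largest difference, up to 4 others with the smallest p, a standing set of 13 genes, and up to 4 genes of each other list. Array values are given for the genes with the largest F among the groups and those called with IGF1. At 168 h same-numbered vehicle and IGF1 samples deviated together (correlations 0.186 to 0.502). There 4 of 4 same-numbered pairs also share a slide, and whether number or slide underlies the correlation was not tested. The 168 h results above come from the fit without pairs. With the replicate number as a block 0 of the 30 genes were called for IGF1 at 168 h. Alternatives were normexp background correction, quantile and median scaling, the authors' values, no filter, the mean of a gene's probes, array weights, slide and replicate blocks, fits to the compared groups alone, and leaving out each array.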

Additional observations from a re-analysis of the deposited data

Results flagged for a closer look

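In 11 of 180 groups of 4 arrays (30 genes in 6 groups), 1 array stood apart from the other 3 by Dixon's criterion, which chance meets in about 1 of 20 groups. Replicate 1 was the array in 7 of them: Myoz2 in IGF1 at 24 h (6.81, others 6.17 to 6.26), Myl3 in IGF1 at 48 h (8.24, others 8.13 to 8.14) and at 168 h (8.30, others 8.53 to 8.56), Tnnc1 at 168 h in vehicle (5.47, others 6.01 to 6.07) and IGF1 (5.60, others 5.89 to 5.94), Actc1 in vehicle at 168 h (8.21, others 8.51 to 8.57) and Nrap in IGF1 at 48 h (5.92, others 6.05 to 6.06). Replicate 3 stood apart for Ldb3 in IGF1 at 24 h (4.08, others 4.31 to 4.34) and for Myoz1 in IGF1 at 48 h (-2.13, others -1.88 to -1.83) and vehicle at 168 h (-3.04, others -3.41 to -3.40). Replicate 4 did so for Actn2 in vehicle at 24 h (8.20, others 7.86 to 7.91).

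The IGF1 difference itself differed among the times by limma's F-test for Myom1 (adjusted p = 0.0380), Myom2 (0.0287) and Myoz2 (0.0218). These are 3 of the 30 genes, against 5.66% of all genes, and 0 of the 3 calls held under every alternative. From 24 to 168 h the IGF1 difference changed by -0.58 for Myom1, -0.59 for Myom2, -1.46 for Myot and -0.86 for Myoz2 on the log2 scale. That contrast called 11.1% of all genes. Myot did not pass the F-test over the 3 times (adjusted p = 0.118).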

How the results depend on the processing

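Of the calls on the 30 genes, 1 of 8 for IGF1 at 24 h kept its side of the threshold under every alternative and without every array, 5 of 8 for vehicle 48 against 24 h, 7 of 16 for 168 against 48 h and 16 of 19 for 168 against 24 h, and with IGF1 12 of 16, 7 of 14 and 11 of 17 for the same steps; of the 3 calls on the IGF1 difference among times, 0 did. The calls for IGF1 at 24 h numbered 5 when dim probes were kept and 2 when the arrays of the 2 groups were fitted alone. With slide as a fixed block 1 gene was called for IGF1 at 48 h, 9 for vehicle and 7 for IGF1 at 168 against 48 h. The difference among times called 1 gene with quantile scaling, with median scaling and with no filter, and 6 with array weights. The sign turned for Synpo2l in vehicle at 48 against 24 h (-0.56) and Myh6 at 168 against 24 h (0.45) as means of probes, and for Tpm1 with IGF1 at 168 against 24 h with quantile scaling (0.000055) and as a mean of probes (0.031); the cause was not tested.

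Without 1 array each, the called genes numbered 2 to 10 for IGF1 at 24 h, 0 to 0 at 48 and 168 h, 5 to 8, 15 to 19 and 18 to 19 for vehicle 48 against 24, 168 against 48 and 168 against 24 h, 14 to 16, 12 to 13 and 16 to 18 for the same steps with IGF1, 0 to 5 for the difference among times and 24 to 26 among the 6 groups. With the replicate number as a block the calls were 10, 0 and 0 for IGF1 at 24, 48 and 168 h, 8, 16 and 19 for the vehicle steps, 16, 15 and 19 for the IGF1 steps, 4 for the difference among times and 27 among groups. Same-numbered samples correlated at -0.05 to 0.13 at 24 h, where 4 of 4 pairs share a slide, and at -0.005 to 0.11 at 48 h, where 3 of 4 do, so their deviations did not pair them at those times. Quantile scaling called 6 genes higher and 2 lower for IGF1 at 24 h. Median scaling moved the median of all genes at 168 against 24 h from -0.03 to -0.13 in vehicle and from -0.09 to -0.19 with IGF1. The changes of the IGF1 difference between single pairs of times were not rerun under the alternatives. Myl7 had no level well above background in the vehicle groups at 24 and 48 h; its removal from list means was chosen after the data were seen.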
